A study of Mus musculus with 2 samples.

Results

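The genes described here are 41 genes of the cell cycle, among them copiers of DNA, the machinery of mitosis, and the chromatin proteins and tubulins that dividing cells make in quantity. They were looked up by symbol in a pair of deposited marker tables from mouse liver cells, and 40 of the 41 were listed, out of 2788 names in both tables together. The missing member was Top2a, the topoisomerase that untangles chromosomes before they part. The members were grouped by role as 11 genes of S phase and nucleotide supply, 22 genes of mitosis and its control, and 8 genes for chromatin proteins and tubulins.

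The cells came from fasted adult male wild-type BALB/c mice. For 5 days the mice received daily intraperitoneal injections of PBS, or of 0.5 µg of rIL-33 (recombinant interleukin-33, a cytokine of the interleukin-1 family). Livers were digested in a pair of steps with an enzyme perfusion, and the unsorted cells, labelled as primary hepatocytes, were run as 1 droplet library per condition. The number of mice behind each library is not given in the sources used here. The deposited tables pool both conditions, so that no value below compares rIL-33 with PBS, and there are no replicates, no errors between samples and no tests.

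A cell that divides first copies its DNA in S phase, which calls for a helicase to open the strands, a clamp and polymerases to copy them, a ligase to seal the pieces, and enzymes that supply deoxynucleotides. In mitosis, cyclins and their kinase drive the cell in, condensins pack the chromosomes, kinetochores and motor proteins move them, and ubiquitin ligases destroy the cyclins so that the cell can leave. Hepatocytes of an adult liver are mostly at rest and re-enter the cycle after injury or loss of tissue, whereas red cell precursors and stimulated lymphocytes divide often.

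Each row of a table gives, for 1 gene and 1 cluster of cells, how large a share of the cells had a value above 0 inside the cluster, and the same share in the cells it was compared with. The table of all cells set each of 12 clusters against the rest and held 3742 rows for 1755 genes. The table of hepatocytes set each of 5 hepatocyte clusters against the other hepatocytes and held 2103 rows for 1609 names. A gene is called listed for a cluster where it has a row there. The smallest log2 fold change in either table was no lower than 0.25, and at least 1 of both shares reached 25% in every row. A gene that is not listed may thus be present at a level like that of the other cells, or at a lower one. It may also be higher in the cluster but positive in less than 25% of the cells on both sides, or lie outside the genes compared. The direction of a row is read here from the shares alone, and a share may be lower inside a cluster in which the mean was higher.

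The same cluster did not have the same shares in both tables. For 825 pairs of gene and hepatocyte cluster that both tables list, the share inside the cluster was higher in the table of all cells for 704, equal for 104 and lower for 17, with a median gap of 10.5 percentage points (range -6.0 to 51.7). The reason for the gap was not tested, and integration of the libraries is not described in the sources used here. The shares of the table of all cells are therefore given as shares of cells with a value above 0, and are not read as shares of cells with a detected transcript. This bears most on shares outside a cluster, since members such as Cks2 and Pcna had a value above 0 in 43.4% and 31.6% of the cells outside the red blood cell cluster. Neither the number of cells nor their depth is in the tables, and no counting error is given. The ranges below cover the rounding of a share, to within 0.05 percentage points, and leave out the error of counting cells, which weighs most in the smallest clusters. The size of each cluster was fitted from the balance of both shares over 1115 genes listed for more than 1 cluster, and the fit left a residual (root mean square) of 0.0224 percentage points. Hepatocyte clusters made up 90.0% of the cells, so that the cells outside any small cluster are mostly hepatocytes.

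The members were listed most often for the cluster the authors named red blood cell, which held 0.708% of the cells. All 40 members in the table were listed there, whereas 18.2% of all 1755 genes were. With the stricter demand that the share be at least 10 percentage points higher inside, the count stayed at 40, and 16.2% of all genes passed. The T cell cluster, 1.32% of the cells, had 20 members (34.1% of all genes were listed for it), and the B cell cluster, 2.19% of the cells, had 14 (29.1% of all genes). The counts of members were 5 for the cluster named HSC / fibroblast (hepatic stellate cells and fibroblasts; 30.5% of all genes), 3 for Kupffer cells, the resident macrophages of the liver (28.4%), 3 for endothelial cells (5.58%) and 2 for neutrophils (12.9%). With the stricter demand, 12 members were left for T cells, 8 for B cells, 5 for HSC / fibroblast, 1 for neutrophils, and 0 for Kupffer cells and endothelial cells. For these clusters the share of all genes that passed the stricter demand was not worked out, so these stricter counts cannot be judged against it. The red blood cell count stood furthest above the share of all genes listed, and since the members were chosen with these tables known, it is a description of them and was not tested.

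Among the hepatocyte clusters, 1 member was listed. In the table of all cells this was Hmgb1 for Hepatocyte3, for which 2.11% of all genes were listed. No member was listed for Hepatocyte1 (1.77% of all genes), Hepatocyte2 (0.57%), Hepatocyte4 (25.2%) or Hepatocyte5 (24.7%). The table of hepatocytes gave the same picture, with Hmgb1 for Hepatocyte3 (7.64% of its names) and no member for Hepatocyte1 (10.6%), Hepatocyte2 (3.48%), Hepatocyte4 (54.7%) or Hepatocyte5 (54.3%).

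**Figure D1:**
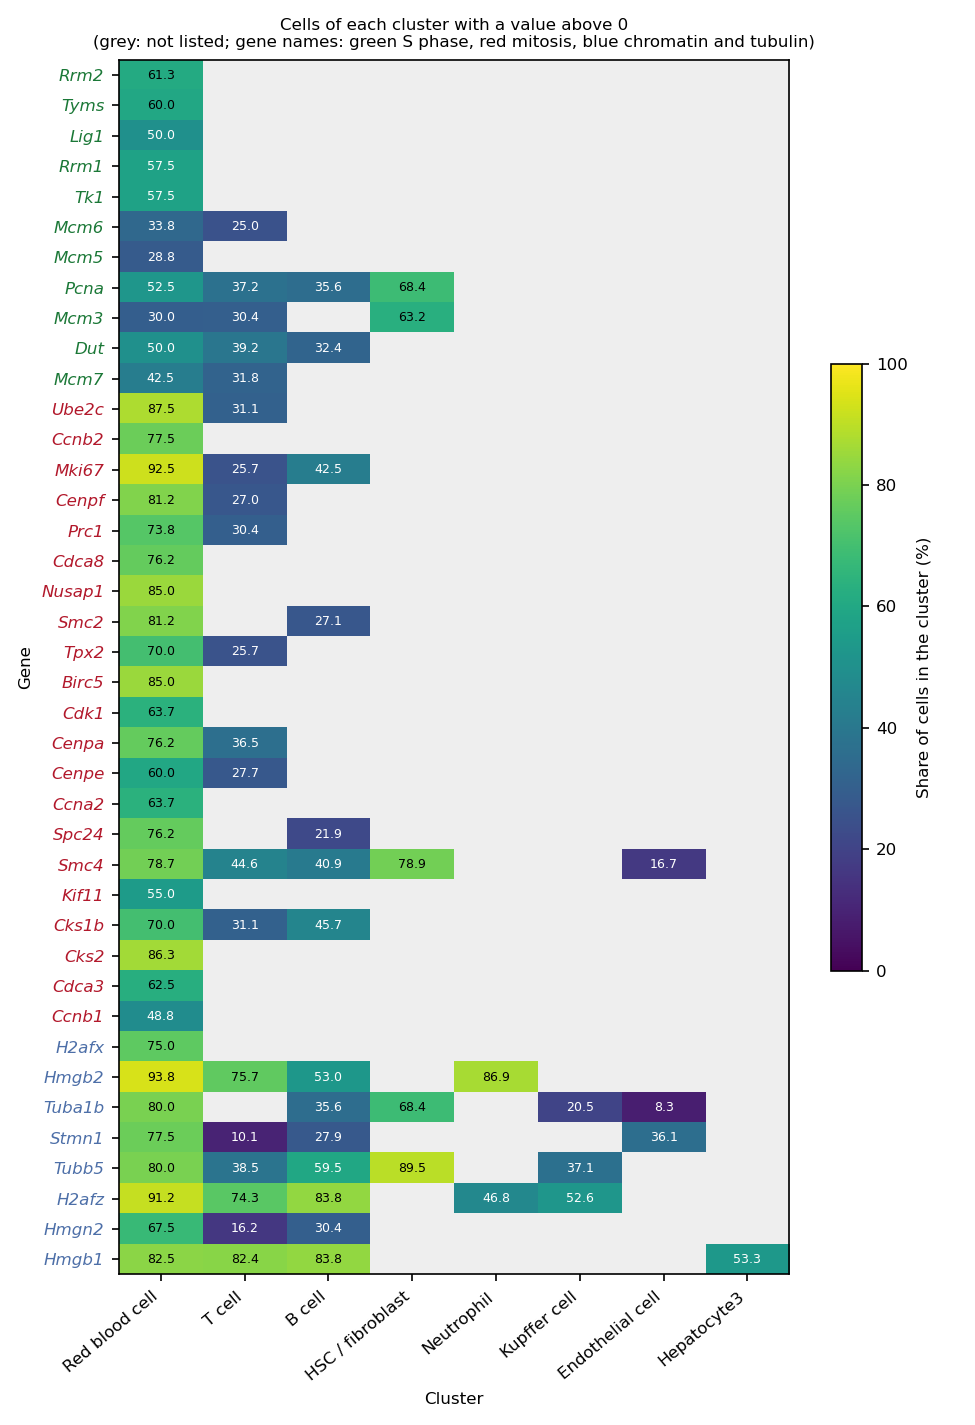
Share of cells with a value above 0 (%, colour and number) for each of the 40 listed members (rows) in the clusters for which it was listed (columns). Grey marks a gene that was not listed. The red blood cell column is filled from end to end, the T cell and B cell columns hold 20 and 14 genes at mostly lower shares, and Hepatocyte3 holds Hmgb1 alone.

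Of the 40 listed members, 17 were listed for a single cluster. For each of these 17 it was the red blood cell cluster, which follows from all 40 being listed there. That is 42.5% of the members, beside 36.5% of all genes in the table (640 of 1755). The genes listed for 1 cluster were 10 of the 21 listed mitosis genes, 6 of the 11 S phase genes and 1 of the 8 genes for chromatin proteins and tubulins, namely the histone variant gene H2afx. A further 10 members were listed for 2 clusters and 13 for 3 or more, and no member for more than 5. The members listed for 5 clusters were Tubb5, Tuba1b, H2afz and Smc4, whose products serve the cytoskeleton or the chromatin of resting cells as well, or pack chromosomes. Among the clusters for which a member was listed, the red blood cell cluster had the highest share for 35 members. For the 17 listed for a single cluster this could not be otherwise, and shares in clusters without a row are not known.

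The name of that cluster was checked against genes of the red cell lineage. Of 18 erythroid marker genes, 5 were listed in the table of all cells, and the red blood cell cluster had all 5. They were Klf1, a transcription factor of erythroid precursors, Alas2, the first enzyme of haem synthesis in red cells, the carbonic anhydrases Car1 and Car2, and Blvrb, a biliverdin reductase. Their shares inside ran from 35.0% to 100%, and Blvrb was also listed for Hepatocyte3 (54.1%). The haemoglobin genes were not listed for any cluster. None of 5 early granulocyte genes was listed for any cluster, so the red blood cell cluster could not be checked for them. The T cell markers (5 of 5), B cell and plasma cell markers (6 of 6) and Kupffer cell markers (6 of 6) were listed, but not for the red blood cell cluster. The same held for 5 of 8 neutrophil markers, and the rest of these were listed for no cluster.

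Inside the red blood cell cluster the mitosis genes had the largest gaps. Their median share was 76.2% inside (range 48.8% to 92.5%, 21 genes) against 9.8% outside (0.7% to 43.4%), with a median difference of 59.3 percentage points. The S phase genes had a median share of 50% inside (28.8% to 61.3%, 11 genes) against 21.1% outside (1.2% to 31.6%), with a median difference of 32.6. For the 8 genes of chromatin proteins and tubulins the medians were 80.0% inside (67.5% to 93.8%) and 31.1% outside (19.9% to 48.4%), with a difference of 47.6. Over all 320 genes listed for the cluster, members included, the medians were 57.5% inside and 25.1% outside, with a difference of 33.6. The S phase genes thus lay close to the cluster's typical listed gene, and the mitosis genes above it. Of the 40 genes with the largest differences in the cluster, 11 were mitosis members and 0 came from the other member groups.

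The mitosis genes with the widest gaps were Ube2c and Ccnb2, and the S phase genes shown with them are Rrm2 and Mcm3. Ube2c, the ubiquitin-conjugating enzyme of the anaphase-promoting complex, had a value above 0 in 87.5% of the cells inside and 9.8% outside. For Ccnb2, cyclin B2, a partner of the mitotic kinase, the shares were 77.5% and 0.7%. Rrm2, the small subunit of ribonucleotide reductase, which makes deoxynucleotides, had the largest difference among the S phase genes, at 61.3% and 10.7%. Mcm3, a subunit of the replicative helicase, had 30.0% and 9.1%, and is shown for its wider difference in the HSC / fibroblast cluster (63.2% inside, 9.1% outside). Start regions of these 4 genes are shown because genes of S phase and of mitosis are known to be switched on through different promoter elements. E2F factors bind sites at many S phase genes, and the MuvB complexes bind the cell cycle homology region, usually downstream of CCAAT boxes for NF-Y, at many mitosis genes. Each sequence runs from 150 bases before to 20 bases after the RefSeq gene start, in the direction of transcription, on GRCm38.p6. No other RefSeq gene overlaps any of them, and each stretch is the upstream flank followed by the first transcribed bases. Capitals mark a CCAAT box (CCAAT or its reverse complement ATTGG) or a cell cycle homology region (TTTGAA or TTCGAA, or a reverse complement).
Mcm3 (chr1:20820293-20820462, minus strand): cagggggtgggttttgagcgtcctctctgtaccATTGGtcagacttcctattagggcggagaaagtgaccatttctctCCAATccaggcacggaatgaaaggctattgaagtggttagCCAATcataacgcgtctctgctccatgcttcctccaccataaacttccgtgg
Rrm2 (chr12:24708104-24708273, plus strand): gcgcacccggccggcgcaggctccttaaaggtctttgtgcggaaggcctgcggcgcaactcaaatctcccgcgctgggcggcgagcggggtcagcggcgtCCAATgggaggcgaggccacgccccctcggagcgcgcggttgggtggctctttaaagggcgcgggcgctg
Ube2c (chr2:164769779-164769948, plus strand): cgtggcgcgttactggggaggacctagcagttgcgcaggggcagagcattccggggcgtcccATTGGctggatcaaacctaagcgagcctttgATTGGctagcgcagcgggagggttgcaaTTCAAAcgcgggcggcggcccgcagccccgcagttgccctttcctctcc
Ccnb2 (chr9:70421535-70421704, minus strand): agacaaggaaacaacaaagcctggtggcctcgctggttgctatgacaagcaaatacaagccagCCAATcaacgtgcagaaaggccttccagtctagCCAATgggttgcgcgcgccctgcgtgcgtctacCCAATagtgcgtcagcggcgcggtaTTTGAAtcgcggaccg

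Positions of matches are given by their first base as printed, with 1 as the first transcribed base. In Ccnb2, CCAAT boxes lay at -87, -54 and -21, and TTTGAA lay at 5. Ube2c had CCAAT boxes on the other strand at -88 and -57 and TTCAAA at -29. Both mitosis genes thus had CCAAT boxes followed by a cell cycle homology region in the stretch shown. Rrm2 had a single CCAAT box at -50, and Mcm3 had CCAAT boxes at -117, -72 and -32. Neither S phase gene had a cell cycle homology region in the stretch, and the E2F words of Mcm3 lay past it, with GCGGGAAA from 20 on and TTTGGCGC from 39 on.

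The same words were searched on both strands in every RefSeq promoter, from 250 bases before to 50 after the start. Of the 41 members, 35 had an entry, with 40 promoters. Stmn1, Ccna2, Tpx2, Smc4, Spc24 and H2afx had no entry. Some genes have more than 1 promoter, and these overlap or belong to 1 gene and are not independent. A CCAAT box was in 17 of 19 promoters of mitosis genes (89.5%), 8 of 14 promoters of S phase genes (57.1%) and 5 of 7 promoters of the chromatin and tubulin group (71.4%), beside 37.4% of all 32851 promoters. The cell cycle homology region was in 14 of the 19 mitosis promoters (73.7%), 1 of the 14 S phase promoters (7.14%) and 1 of the 7 chromatin and tubulin promoters (14.3%), beside 19.2% of all promoters. Within 100 bases before the start, it was in 36.8% of the mitosis promoters and 6.13% of all. The E2F words TTTGGCGC, TTTCGCGC, TTTGCCGC and TTTCCCGC were in 5 of the 14 S phase promoters (35.7%), 1 of the 19 mitosis promoters (5.26%) and none of the 7 others (0.0%), beside 2.26% of all promoters. Within 100 bases before the start, the E2F words were in 7.14% of the S phase promoters and 0.846% of all. No word of one motif contains a word of another, and TTCGAA reads the same on both strands. A match describes the letters of the window and is not a bound site. The members lie on 16 chromosomes, with at most 5 on any of them.

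**Figure D2:**
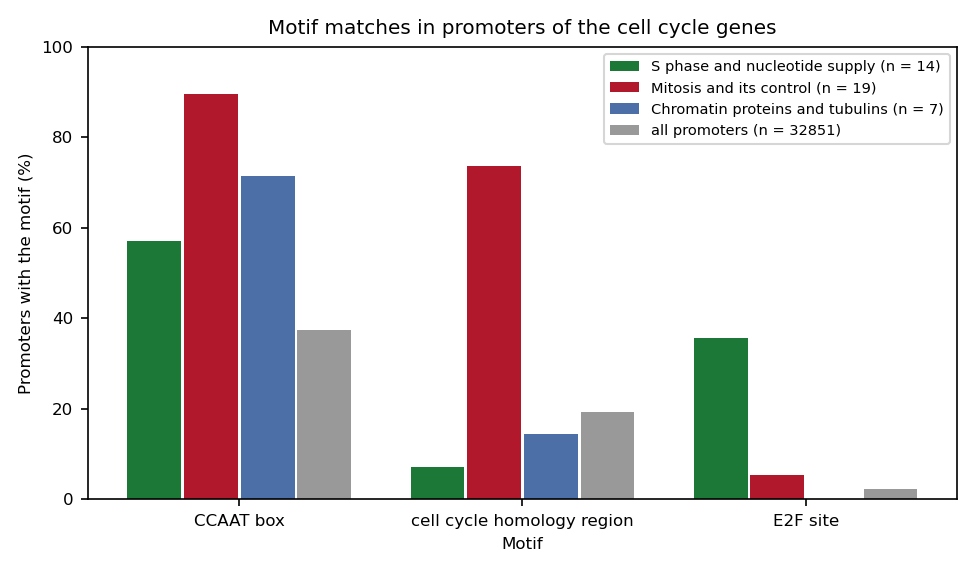
Share of RefSeq promoters (%, 250 bases before to 50 after the start) that hold each of 3 motifs, for the promoters of the 3 member groups and for all 32851 promoters. The bar of the cell cycle homology region reaches 73.7% for mitosis genes and 7.14% for S phase genes, and the E2F bar reaches 35.7% for S phase genes and 5.26% for mitosis genes. Within 100 bases before the start, these shares were 36.8% and 0.0% for the former and 7.14% and 0.0% for the latter.

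Among the regulators of entry into mitosis in the red blood cell cluster, the share of Cdk1, the mitotic kinase, was 63.7% inside and 4.4% outside. Its partners Ccna2 (cyclin A2) and Ccnb1 (cyclin B1) had 63.7% against 8.7% and 48.8% against 6.8%. Ccnb1 had the lowest share inside the cluster of the mitosis genes, and Ccnb2 the lowest share outside it. The small kinase-binding proteins Cks1b and Cks2 had 70.0% against 25.1% and 86.3% against 43.4%. Cdca3, which promotes the destruction of the mitosis inhibitor Wee1, had 62.5% against 19.7%. The 2 Cks genes and Cdca3 thus had higher shares outside the cluster than the kinase and its cyclins did.

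Among the genes for chromosome structure, Mki67, whose product coats mitotic chromosomes and is used as a marker of dividing cells, had 92.5% inside and 15.8% outside. The condensin subunits Smc2 and Smc4 had 81.2% against 13.7% and 78.7% against 30.8%. The centromere and kinetochore genes were Cenpa, the histone of the centromere (76.2% against 17.2%), Cenpe, a kinetochore motor (60% against 3.0%), Cenpf (81.2% against 7.1%) and Spc24, a subunit of the Ndc80 complex that grips microtubules (76.2% against 27.9%). Birc5 (survivin) and Cdca8 (borealin), which belong to the chromosomal passenger complex with Aurora kinase B, had 85.0% against 20.1% and 76.2% against 7.8%.

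Among the spindle genes, Kif11, the motor that pushes the spindle poles apart, had 55.0% inside and 8.9% outside. Tpx2, which activates Aurora kinase A on the spindle, had 70.0% against 4.1%. The microtubule-bundling genes Prc1 and Nusap1 had 73.8% against 4.6% and 85.0% against 17.2%. Every one of the 21 listed mitosis genes was at least 42.0 percentage points higher inside the cluster.

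The differences of the S phase genes ran from 11.6 to 50.6 percentage points. The helicase subunits had the lowest shares of the group inside the cluster, with 33.8% against 1.2% for Mcm6, 28.8% against 5.9% for Mcm5, the values above for Mcm3, and 42.5% against 30.9% for Mcm7. The difference for Mcm7, 11.6 percentage points, was the smallest of all 40 members. Pcna, the sliding clamp, had 52.5% against 31.6%, and Lig1, the ligase that joins the fragments of the lagging strand, had 50% against 13.2%. The nucleotide enzymes, besides Rrm2, were Rrm1, the large subunit of the reductase (57.5% against 21.1%), Tyms, thymidylate synthase (60% against 22.0%), Tk1, thymidine kinase (57.5% against 24.2%), and Dut, which removes dUTP (50% against 30.2%). Enzymes of nucleotide supply and the helicase genes thus differed in shares inside the cluster, with all 5 enzymes at 50% or more and all 4 helicase genes at 42.5% or less.

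In the third group, the chromatin proteins Hmgb2 and Hmgb1, which bend DNA, had 93.8% against 39.3% and 82.5% against 46.9%. Hmgn2, which binds nucleosomes, had 67.5% against 26.4%. The histone variant genes H2afz and H2afx had 91.2% against 48.4% and 75.0% against 19.9%. Stmn1, which takes microtubules apart, had 77.5% against 29.8%, and the tubulin genes Tubb5 and Tuba1b had 80.0% against 32.5% and 80.0% against 28.6%. These genes had high shares on both sides, with no member under 19.9% outside. Values of Hmgb1, Hmgn2 and the tubulin genes are uncertain, since each has close copies in the genome among which reads can be split or lost.

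**Figure D3:**
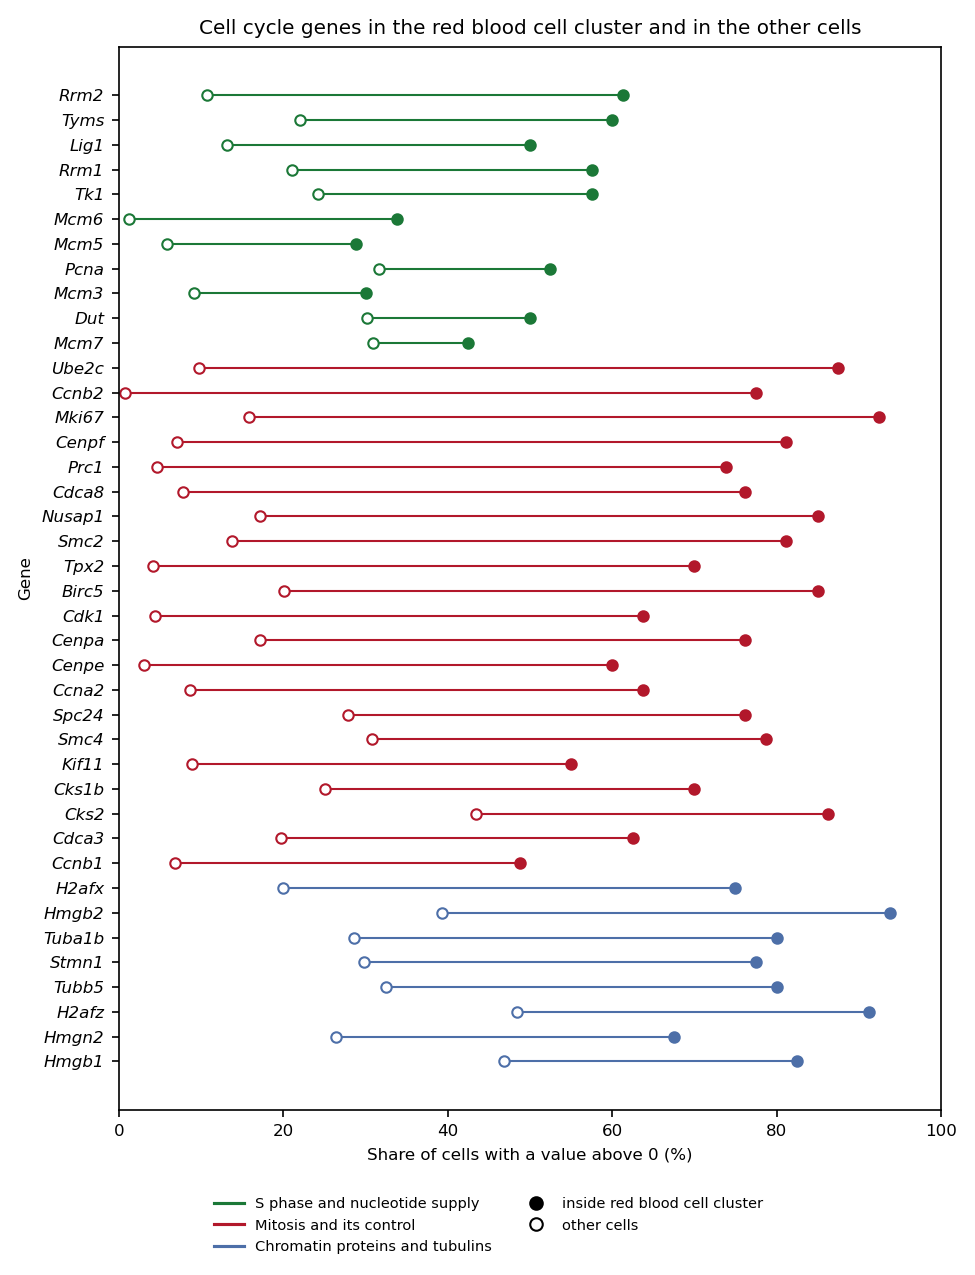
Share of cells with a value above 0 (%) inside the red blood cell cluster (filled points) and in the other cells (open points) for the 40 listed members, coloured by group. Every filled point lies to the right of its open point, as for all but 1 of the 320 genes listed for the cluster. The widest gaps are those of the mitosis genes Ube2c (87.5% and 9.8%) and Ccnb2 (77.5% and 0.7%).

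A large share inside a small cluster does not mean that most positive cells of the liver lie in it. With the fitted cluster size, the red blood cell cluster held 44.1% of all cells positive for Ccnb2 (42.4% to 46.0% from the rounding of the shares alone), and 16.7% of those positive for Mcm6 (16.1% to 17.3%). Next came Cenpe at 12.5% (12.3% to 12.7%), Tpx2 at 10.9% and Prc1 at 10.3%. Of the cells positive for Cdk1, 9.35% lay in the cluster, and of those positive for Ube2c 5.98%. For Mki67 it was 4.01%. The lowest values were 1.17% for Pcna and Dut and 0.971% for Mcm7, close to the 0.708% of cells in the cluster. The median was 4.22% over the mitosis genes, 1.91% over the S phase genes and 1.75% over the chromatin and tubulin group, beside 1.72% over all 320 genes listed for the cluster. For all 40 members, more than 50% of the cells with a value above 0 thus lay outside the cluster, where the gap between both tables bears on the shares.

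**Figure D4:**
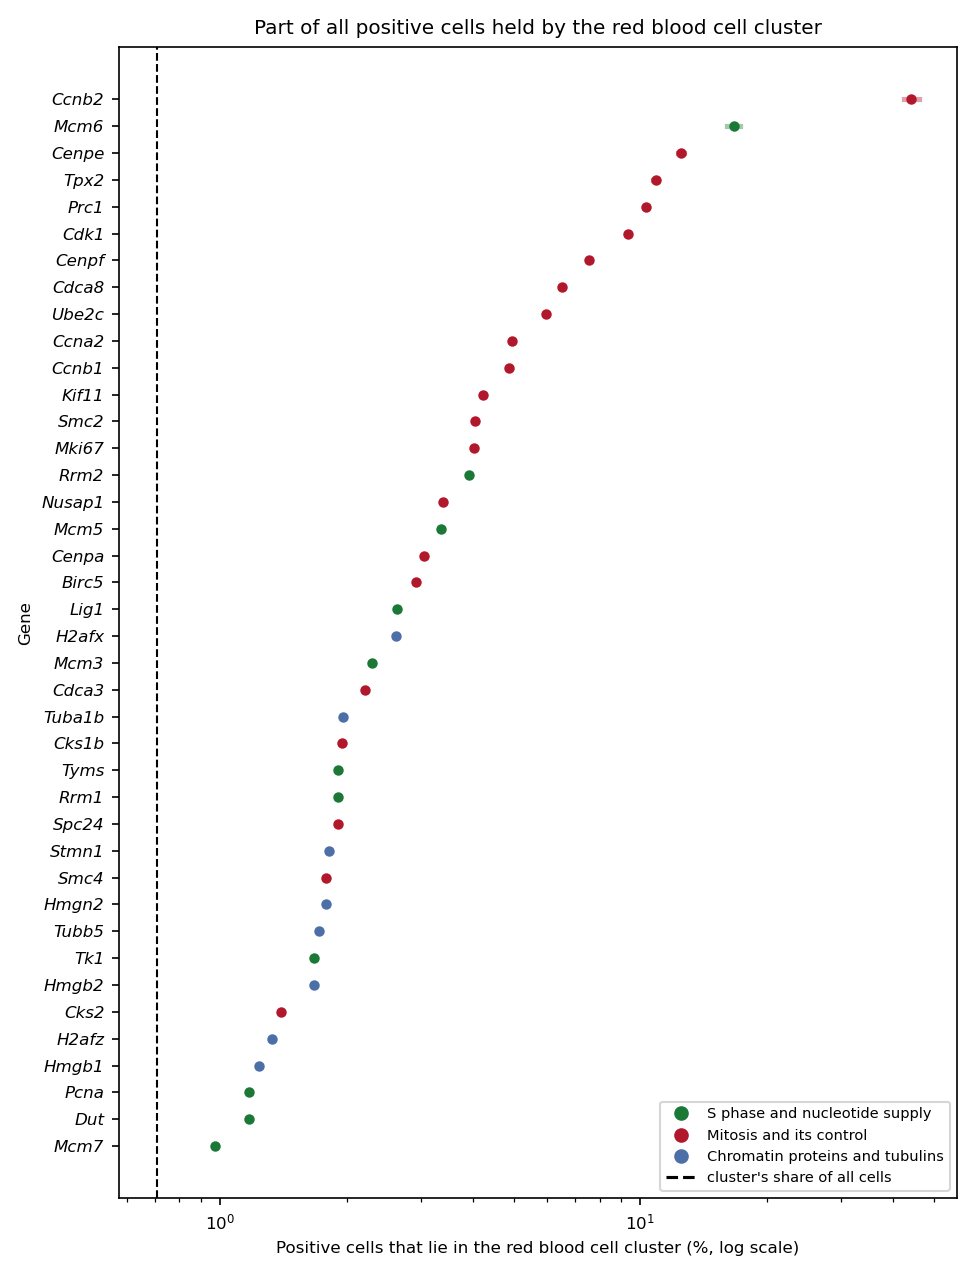
Percent of all cells with a value above 0 that lie in the red blood cell cluster (log axis), for the 40 listed members. Bars show the range from rounding of the deposited shares and the dashed line the cluster's 0.708% of all cells. Ccnb2 stands at 44.1% and Mcm6 at 16.7%, and Mcm7 at 0.971% lies nearest to the line.

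The ratio of both shares gives the same order by construction, since the part of positive cells held follows from this ratio and the cluster size. Ccnb2 was 111-fold higher inside (103 to 119 from rounding), Mcm6 28.2-fold (27.0 to 29.4), Cenpe 20-fold, Tpx2 17.1-fold and Prc1 16.0-fold. The median ratio was 6.18 for the mitosis genes, 2.73 for the S phase genes and 2.51 for the chromatin and tubulin group. All genes listed for the cluster had a median ratio of 2.46. These are ratios of shares of cells and not of expression levels.

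In the T cell cluster, 18 of its 20 listed members had a higher share inside than outside. Of all 598 genes listed for the cluster, 17 had a lower share inside, so a higher share was the common direction. The cluster had 9 mitosis genes, with differences from 5.8 to 25.6 percentage points and a median of 19.6. The largest differences among them were those of Prc1 (30.4% inside, 4.8% outside), Cenpe (27.7% and 3.0%), Tpx2 (25.7% and 4.3%) and Ube2c (31.1% and 10.0%). Cenpf followed with 27.0% and 7.4%, Cenpa with 36.5% and 17.3%, Smc4 with 44.6% and 31.0%, Mki67 with 25.7% and 16.2%, and Cks1b with 31.1% and 25.3%. The mitotic kinase gene Cdk1 and the cyclin genes Ccna2, Ccnb1 and Ccnb2 were not listed for T cells.

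Of the 5 S phase genes listed for T cells, Mcm6 and Mcm3 stood out, with 25% inside against 1.1% outside and 30.4% against 8.9%. The share of Mcm6 inside sat at the 25% limit for listing, so with 1.1% outside it could not have been listed at a lower ratio. The share of Mcm6 was 22.7-fold higher inside, and the cluster held 23.3% of the cells positive for it (22.5% to 24.2% from rounding). Together with the red blood cell cluster, 40% of Mcm6-positive cells lay in 2.03% of all cells. The other three were near the outside level, with 39.2% against 30.2% for Dut, 37.2% against 31.7% for Pcna and 31.8% against 31.0% for Mcm7. In the third group, Hmgb2 (75.7% and 39.2%), Hmgb1 (82.4% and 46.7%), H2afz (74.3% and 48.3%) and Tubb5 (38.5% and 32.8%) were higher inside. Stmn1 (10.1% and 30.4%) and Hmgn2 (16.2% and 26.8%) had lower shares inside. The median difference over the 20 members was 19.4 percentage points, below the 26.2 of all 598 genes listed for T cells.

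The B cell cluster had 14 members, of which 12 had a higher share inside. Of all 511 genes listed for the cluster, 27 had a lower share inside, so here too a higher share was the common direction. The largest differences were those of Hmgb1 (83.8% against 46.3%), H2afz (83.8% against 47.9%), Tubb5 (59.5% against 32.3%) and Mki67 (42.5% against 15.8%). The other mitosis genes were Cks1b (45.7% against 24.9%), Smc2 (27.1% against 13.9%), Smc4 (40.9% against 30.9%) and Spc24, which had a lower share inside (21.9% against 28.4%). Of the third group, Hmgb2 had 53.0% against 39.4%, Tuba1b 35.6% against 28.9%, Hmgn2 30.4% against 26.6% and Stmn1 27.9% against 30.2%. The S phase genes Pcna (35.6% against 31.7%) and Dut (32.4% against 30.3%) were within 4 percentage points of the other cells, and no helicase gene was listed. The median difference over the 14 members was 11.6 percentage points, beside 22.3 over all 511 genes listed for B cells.

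Side by side with the red blood cell cluster, the share in T cells was lower for 19 of their 20 members and higher for Mcm3 (30.4% and 30.0%). In B cells it was lower for 13 of 14 and higher for Hmgb1 (83.8% and 82.5%). These differences for Mcm3 and Hmgb1 were 0.4 and 1.3 percentage points, and they were not set against a counting error. Mki67 had 92.5% in the red blood cell cluster, 42.5% in B cells and 25.7% in T cells. T and B cells shared 11 listed members, namely Cks1b, Dut, H2afz, Hmgb1, Hmgb2, Hmgn2, Mki67, Pcna, Smc4, Stmn1 and Tubb5.

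The cluster named HSC / fibroblast, 0.171% of the cells, had 5 members with high shares. They were Tubb5 (89.5% inside, 32.8% outside), Smc4 (78.9% and 31.1%), Tuba1b (68.4% and 28.9%), Pcna (68.4% and 31.7%) and Mcm3 (63.2% and 9.1%). For all but Tuba1b, the share was higher than in the red blood cell cluster, though for Smc4 both were nearly level (78.9% and 78.7%). These differences were not set against a counting error either. The median difference of the 5 members, 47.8 percentage points, lay below the 51.8 of all 535 genes listed for this cluster. Mki67, Cdk1 and the member cyclin genes Ccna2, Ccnb1 and Ccnb2 were not listed for it. Stellate cell markers were listed there (5 of 5, 89.5% to 100%), and so were 4 of 5 endothelial markers (52.6% to 94.7%), so that the cells carry marker genes of both cell types.

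In the remaining non-parenchymal clusters the listed members came from the third group, with Smc4 in endothelial cells as the exception. Neutrophils had Hmgb2 at 86.9% against 38.7%, second to the red blood cell cluster among the clusters listed for this gene. They had H2afz at 46.8% against 48.7%. Kupffer cells had Tubb5 at 37.1% against 32.7%, H2afz at 52.6% against 48.5% and Tuba1b at 20.5% against 29.2%. The cluster named endothelial cells had Stmn1 at 36.1% against 30.1%, Tuba1b at 8.3% against 29.2% and Smc4 at 16.7% against 31.3%. Its name is the authors', and 3 of 5 endothelial markers (30.6% to 38.0%) and 1 of 5 stellate markers (Dcn, 48.1%) were listed for it. Apart from Hmgb2 in neutrophils, no member in these 3 clusters had a share more than 6.0 percentage points higher inside.

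Hmgb1 was the member listed for a hepatocyte cluster. In Hepatocyte3 its share was 38.6%, and outside it, over the remaining hepatocytes, 32.7%. This difference of 5.9 percentage points ranked 9 among the 123 names of that cluster in the table of hepatocytes. The cluster held 10.1% of the hepatocytes and 11.7% of those positive for Hmgb1. In the table of all cells, its share was 53.3% against 46.5%, 14.7 percentage points above the share in the other table for the same cluster. Hmgb1 is an abundant chromatin protein of resting cells too, and no cyclin, kinase, replication or spindle gene of the members was listed for any hepatocyte cluster. The fraction of positive cells over the clusters for which a gene was not listed, mostly hepatocytes, can be worked out from the cluster sizes. Its median was 9.48% for the mitosis genes (0.7% for Ccnb2 to 43.4% for Cks2), 21.1% for the S phase genes (0.872% for Mcm6 to 31.4% for Pcna) and 30.9% for the chromatin and tubulin group (19.9% to 47.0%). Since shares in hepatocyte clusters were mostly higher in this table than in the table of hepatocytes, they are not read as shares of hepatocytes that express the gene.

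A further 97 genes of the cell cycle that are not members, named from textbook knowledge and standard phase lists, were looked up in the same tables. These genes too were chosen with earlier results of these data known, so their listing is no independent check. Of them 32 were listed in the table of all cells, with 29 for the red blood cell cluster, 14 for T cells, 13 for B cells, 4 for neutrophils, 3 for HSC / fibroblast, 2 for Kupffer cells, 1 for endothelial cells and 0 for the hepatocyte clusters. Of all 1755 genes, 18.2% were listed for the red blood cell cluster, 34.1% for T cells, 29.1% for B cells and 12.9% for neutrophils. The shares were 30.5% for HSC / fibroblast, 28.4% for Kupffer cells and 5.58% for endothelial cells, with those of the hepatocyte clusters given above. All 29 had a higher share inside the red blood cell cluster, with a median share of 53.7% (26.2% to 80.0%) and a median difference of 35.2 percentage points. That direction is nearly fixed by the listing, since 1 of all 320 genes listed for the cluster had a lower share inside. Over those 320 genes the medians were 57.5% inside and a difference of 33.6, so the 29 lay close to the typical listed gene. The 29 were 4 of 11 genes of G1 and cycle entry, 2 of 9 inhibitors, 8 of 35 further S phase genes and 15 of 42 further genes of G2 and mitosis.

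Of the G2 and mitosis list, the kinase genes Aurkb and Aurka had 43.8% inside the red blood cell cluster against 1.7% outside and 38.8% against 3.6%. The cluster held 15.5% of the cells positive for Aurkb. Kif23, a motor of cytokinesis, had 40% against 2.8%, and the condensin genes Ncapd3 and Ncapd2 had 61.3% against 12.0% and 38.8% against 20.4%. Lbr, the lamin B receptor of the nuclear envelope, had the largest difference of this list (80.0% against 13.7%) and was also listed for T cells (45.9%), neutrophils (35.0%) and B cells (34.4%). Pclaf, a partner of Pcna, had 57.5% against 8.6%, Spc25, the partner of Spc24, 58.8% against 23.0%, and Tacc3, a spindle protein, 43.8% against 12.2%. The list's other genes in the cluster were Anp32e (76.2%), Tmpo (68.8%), Cbx5 (66.2%), Ctcf (66.2%), Ckap5 (47.5%) and Kif20b (32.5%).

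Of the S phase list, Atad2 had 53.7% against 8.8%, the repressor gene E2f8 51.2% against 13.8%, the histone mRNA binding gene Slbp 60% against 28.3% and the polymerase gene Pola1 38.8% against 8.5%. Tipin (56.2%), Nasp (38.8%), Prim1 (36.2%) and the helicase gene Mcm4 (31.2% against 19.0%) completed it. The cyclins of S phase entry, Ccne2 and Ccne1, had 35.0% against 7.5% and 26.2% against 9.5%. Ccnd3, a cyclin of G1, had 66.2% against 38.2% and the retinoblastoma gene Rb1 56.2% against 11.6%. Both listed inhibitors had high shares in the same cluster, with 67.5% against 23.9% for Cdkn2d and 78.7% against 39.8% for Btg2. Another cyclin of G1, Ccnd2, was not listed there but for HSC / fibroblast (84.2%), B cells (69.2%) and T cells (62.8%).

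In the table of hepatocytes, 3 of the 97 genes were listed, each for 1 cluster. Of all its 1609 names, 3.48% were listed for Hepatocyte2, 54.7% for Hepatocyte4 and 54.3% for Hepatocyte5. Cdkn1a, the p21 inhibitor of cyclin-dependent kinases, was positive in 41.7% of Hepatocyte2 cells and 16.2% of the other hepatocytes. Hepatocyte2 held 14.9% of the hepatocytes and 31.1% of the Cdkn1a-positive ones. Btg1, an antiproliferative gene, was positive in 60.6% of Hepatocyte4 and 15.1% of the others, and Hepatocyte4 held 47.1% of the positive cells in 18.1% of the hepatocytes. Hjurp, the chaperone that loads the centromere histone, was positive in 27.8% of Hepatocyte5 and 4.1% of the others. Hepatocyte5 held 1.47% of the hepatocytes and 9.2% of those positive for Hjurp. By difference of shares, Cdkn1a ranked 47 of 56 names listed for its cluster, Btg1 150 of 880 and Hjurp 813 of 874.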

How the data were processed

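Cells were prepared as droplet libraries, 1 per condition, aligned with Cell Ranger to mm10 and analysed in Seurat by the authors, who removed cells with too few or too many genes (the upper limit against doublets; no doublet caller was run here) or a high mitochondrial share, scaled counts per cell and took the natural log. Both deposited tables pool PBS and rIL-33. The share columns hold a fraction of cells with a value above 0, deposited by the authors to 3 decimals and given here as percent. Of the authors' log2 fold changes the minimum alone was read, and their p-value columns were not used. No column of per-sample values was left out, and no test was possible.

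Cluster sizes were fitted by least squares in NumPy 2.4.6 (with pandas 2.3.3 under Python 3.11.15), and SciPy 1.17.1 was used for an alternative size fit. The fit was tested on simulated data with cluster sizes drawn at random and not set to those found here. The error allowed there was larger than the HSC / fibroblast cluster itself, so the test does not show how exact the sizes of the smallest clusters are. The promoters are RefSeq sequences on GRCm38.p6, matched by symbol or unambiguous synonym (H2afz as H2az1). Figures used Matplotlib 3.10.9. The members, their grouping and the further lists were chosen with earlier results of these data known. Every listed member is named. Of the 97 further genes, those listed for the cluster with most members or for a hepatocyte cluster are named. Promoters are shown for 2 S phase and 2 mitosis genes with an entry and the largest difference in any cluster. Alternatives were other limits on the shares, other size fits, the other table, a single strand and a shorter window.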

Additional observations from a re-analysis of the deposited data

How the results depend on the processing

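No paired analysis was possible because both conditions were pooled into each table and no value belongs to 1 library. For the same reason no replicate could be left out. With at least 10 percentage points more inside, the members listed fell to 12 for T cells, 8 for B cells, 1 for neutrophils and 0 for Kupffer cells, endothelial cells and Hepatocyte3 (0 in both tables), while the red blood cell count stayed at 40. The share of all genes that passed this limit was worked out for the red blood cell cluster alone (16.2%). Counting only shares that were higher inside left 1 member for neutrophils and 1 for endothelial cells, and a share inside of at least 25% left 1 for endothelial cells. When the fit used rows whose shares lay 10 percentage points or more apart, it gave 10.2% of hepatocytes in Hepatocyte3. Hmgb1 in Hepatocyte3 was 53.3% in the table of all cells.

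On the forward strand alone, the CCAAT box was in 68.4% of mitosis promoters and 21.1% of all promoters, the cell cycle homology region in 11.6% of all and the E2F words in 1.2% of all. Within 100 bases before the start, the CCAAT box was in 18.9% of all promoters. There the cell cycle homology region was in 36.8% of mitosis, 0.0% of S phase and 6.13% of all promoters, and the E2F words were in 7.14% of S phase, 0.0% of mitosis and 0.846% of all promoters. The other 50 recomputed group values stayed within set limits. These were 1.5 times (counts), the residual of the fit (cluster sizes), the range from rounding (shares) or the Wilson interval of a share (motifs). All 120 values of single genes stayed within rounding. Most of the 120 came from rounding the shares up or down, which gives the ends of that range, and so could not fall outside it. The number of cells, their depth and the gap between both tables limit every share.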
